A study of Mus musculus with 137 samples.

Results

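Young lungs taken 42 days after bleomycin were set against young lungs taken 42 days after saline. The 10 libraries were those whose titles name the young age, day 42 and 1 of the 2 treatments, which make 2 of the 26 groups of age, treatment and day in the series, with 5 libraries each. The mice were male C57BL/6J, 8 to 12 weeks old, and received 0.7 mg/kg bleomycin sulphate or saline (NaCl) into the trachea. RNA came from 20 mg of flash-frozen lung per library and was sequenced as polyadenylated RNA. Other groups served for comparison: young lungs 35 days after bleomycin (4) or saline (4), young lungs 56 days after bleomycin (4) or saline (5), old lungs (21 months) 42 days after 0.63 mg/kg bleomycin (5) or saline (6), and 4 untreated young lungs of day 0. Age and dose differ together between the old and the young mice, so their effects cannot be told apart. The labels do not say that the libraries of a group came from separate animals, so the p-values measure the spread between these samples.

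Bleomycin breaks DNA, and given into the airways it injures the alveolar epithelium and sets off inflammation and fibrosis. In young mice this scar is known to recede over the following weeks, while macrophages take up debris and matrix and the epithelium is rebuilt. Macrophages recruited from blood monocytes carry Spp1, Trem2 and Gpnmb, and degrade what they engulf in lysosomes with cathepsins and other acid hydrolases. Lipofibroblasts, lipid-holding fibroblasts next to alveolar type 2 cells, supply the epithelium with lipid and with growth factors such as Fgf10 and Wnt2. Plasma cells, the antibody-secreting end stage of B cells, build antibodies from heavy and light chains and link IgA and IgM with the joining chain Jchain.

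Each of the 5 bleomycin libraries held 17857515 to 19872785 assigned reads, and each of the 5 saline libraries 18881518 to 23828200. Levels are CPM (assigned reads relative to the TMM-scaled library size), which compare 1 gene between lungs, not genes with each other. Differences are log2 fold changes of bleomycin over saline ± standard error from edgeR's quasi-likelihood test, whose error rests on the spread over all libraries of the series. A mean is given ± SD over 5 lungs. A gene was called at a Benjamini-Hochberg adjusted p below 0.05 over the 18396 genes tested, and "rose" or "fell" is used of called genes. The tissue label was borne out by lung transcripts: surfactant protein C, Sftpc, averaged 17180 ± 2428 CPM in bleomycin lungs and 15980 ± 1576 CPM in saline lungs. Among the untreated lungs, lung 3 stood apart from its group, with 349.3 CPM of the metalloelastase gene Mmp12 against 5.55 to 6.55 CPM in the other 3. Untreated values are therefore given as ranges. In whole-lung RNA, fewer cells of a type and less RNA per cell cannot be told apart.

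At day 42 many genes of macrophages, lysosomes, plasma cells and transitional alveolar epithelium rose, and many of lipofibroblasts fell. Collagen genes of the interstitial scar were not called. In all 1401 genes were called, 7.62% of those tested; 871 rose (4.73%) and 530 fell (2.88%). The median log2 change was 0.68 among the genes that rose and -0.48 among those that fell, against -0.01 over all genes tested. Rises reached further than falls, with 300 rises and 75 falls past 2-fold. All 5 bleomycin lungs lay above all 5 saline lungs in 570 of the 871 rises, and all 5 lay below in 390 of the 530 falls; together these were 5.22% of the genes tested. Without regard to the test, all 5 lay above in 5.07% of genes and below in 4.93%. Without bleomycin lung 4 the fit called 698 genes, and without bleomycin lung 5 it called 905.

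**Figure D1:**
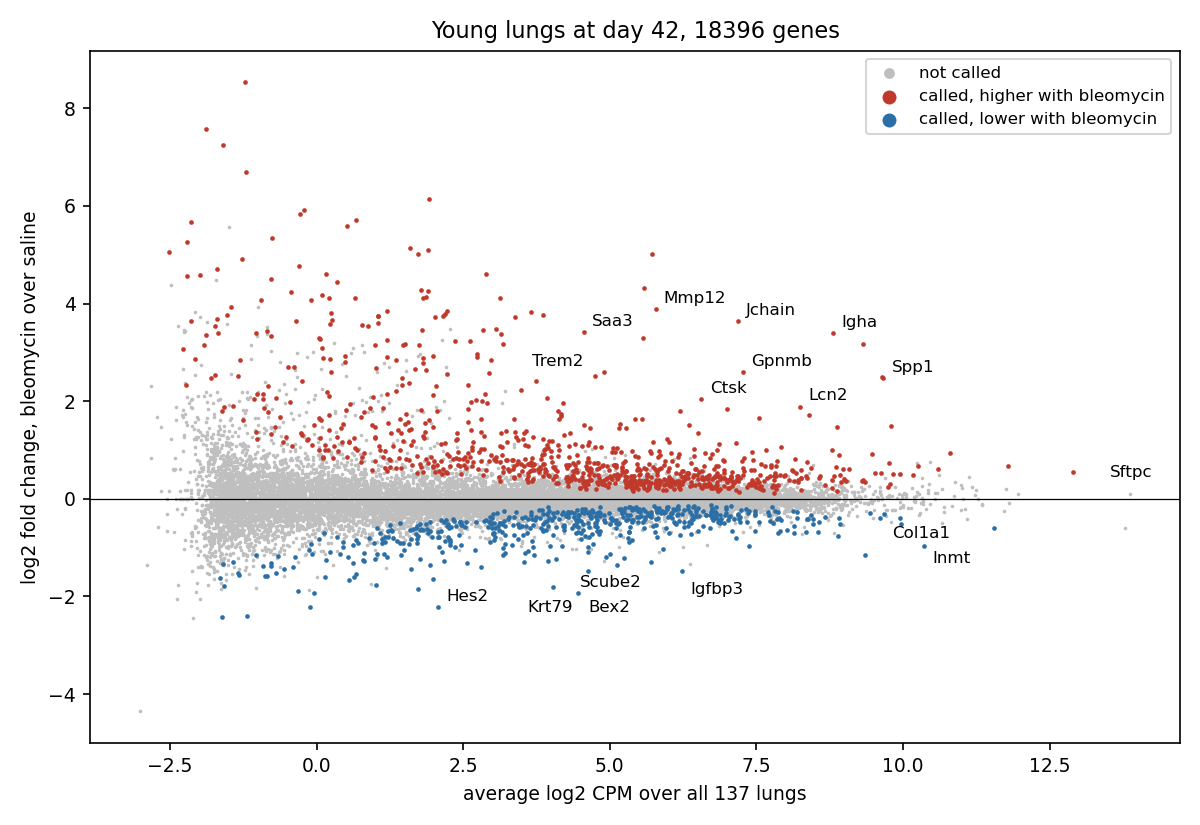
Log2 fold change of bleomycin over saline (vertical axis) against average log2 CPM over all lungs of the series (horizontal axis) for the 18396 genes tested in young lungs at day 42; each point is a gene, red where called higher, blue where called lower, grey where not called. The 871 red points reach further from 0 than the 530 blue ones, and Col1a1 and Sftpc lie near 0.

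Rises with the largest fold changes included several genes of lipid-laden, debris-clearing macrophages. Within the bleomycin group, 15 of the 16 named rises were highest in lung 4 and 12 were lowest in lung 3. The start-site sequences of 5 of these macrophage genes, which share that common order, are shown. Each is the RefSeq window (GRCm38.p6, plus strand, 5′ to 3′) from 250 bases before to 50 after a start. Capitals mark GAGGAAG or its reverse complement CTTCCTC, a core bound by PU.1, the lineage factor of macrophages, and TGAGTCA or its reverse complement TGACTCA, the site of AP-1. Windows lie at chr9:7344147-7344446 (Mmp12, the metalloelastase of macrophages), chr6:49036268-49036567 (Gpnmb, a glycoprotein of phagosomes and melanosomes), chr17:48346151-48346450 (Trem2, a lipid-sensing receptor), chr5:104434861-104435160 (Spp1, the secreted phosphoprotein osteopontin) and chr3:95498960-95499259 (Ctsk, the collagen-cleaving cathepsin K).
Mmp12: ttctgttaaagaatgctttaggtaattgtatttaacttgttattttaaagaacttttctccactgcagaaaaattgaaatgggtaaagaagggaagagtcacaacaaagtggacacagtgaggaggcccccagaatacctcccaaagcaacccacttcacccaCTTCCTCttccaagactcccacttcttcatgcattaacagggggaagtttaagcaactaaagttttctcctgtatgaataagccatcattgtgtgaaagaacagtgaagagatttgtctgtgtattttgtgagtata
Gpnmb: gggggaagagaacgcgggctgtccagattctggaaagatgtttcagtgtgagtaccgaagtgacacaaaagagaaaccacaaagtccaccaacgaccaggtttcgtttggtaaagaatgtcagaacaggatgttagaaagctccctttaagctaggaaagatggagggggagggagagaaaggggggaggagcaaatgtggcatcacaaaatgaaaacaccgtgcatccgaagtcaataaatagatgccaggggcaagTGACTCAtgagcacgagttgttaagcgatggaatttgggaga
Trem2: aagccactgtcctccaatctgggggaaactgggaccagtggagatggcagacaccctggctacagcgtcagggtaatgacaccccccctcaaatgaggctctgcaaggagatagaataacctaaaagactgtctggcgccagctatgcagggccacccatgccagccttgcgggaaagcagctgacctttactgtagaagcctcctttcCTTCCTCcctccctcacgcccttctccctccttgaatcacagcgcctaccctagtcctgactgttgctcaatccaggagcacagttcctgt
Spp1: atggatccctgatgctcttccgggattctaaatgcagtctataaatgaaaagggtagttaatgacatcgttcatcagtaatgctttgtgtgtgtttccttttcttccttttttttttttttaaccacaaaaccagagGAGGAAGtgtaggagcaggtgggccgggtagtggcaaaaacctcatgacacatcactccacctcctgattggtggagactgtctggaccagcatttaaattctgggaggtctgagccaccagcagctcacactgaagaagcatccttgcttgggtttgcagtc
Ctsk: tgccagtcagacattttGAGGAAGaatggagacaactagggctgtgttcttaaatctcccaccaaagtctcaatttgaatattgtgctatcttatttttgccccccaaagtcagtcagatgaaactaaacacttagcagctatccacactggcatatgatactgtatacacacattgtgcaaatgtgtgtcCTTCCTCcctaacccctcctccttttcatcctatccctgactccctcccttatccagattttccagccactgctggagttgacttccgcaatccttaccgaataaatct

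Both strands of each window were searched for 3 motifs, whose letters do not overlap in the sequences shown. GAGGAAG was in a window of 6 of the 16 named rises (Ctsk, Mmp12, Pianp, Rgs16, Spp1 and Trem2) and of 1 of the 11 named falls in the table (Fabp1), against 15.4% of 27025 genes. TGAGTCA was in a window of 2 rises (Gpnmb, and Mmp12 in its other window) and of no fall, against 5.95% of genes. CACGTG, the E-box of the MiT/TFE factors that drive lysosomal genes, was in a window of no named rise and of 1 named fall (Bex4), against 8.09% of genes. These matches are counts of letters in windows and no binding was measured. Spp1 has another window, not shown, which held none of the 3 motifs.

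Mmp12 (ENSMUSG00000049723, chromosome 9, 7344381 to 7369499, GRCm38 as for all positions given) had 64.2, 81.8, 22.03, 98.5 and 67.3 CPM in bleomycin lungs 1 to 5, against 5.01, 6.27, 3.499, 3.43 and 4.27 CPM in saline lungs 1 to 5. Every bleomycin lung lay above every saline lung, and lung 3 was the lowest of its group. The change was the largest of the named rises (log2 3.88 ± 0.52, edgeR adjusted p = 2.79e-08).
Gpnmb (ENSMUSG00000029816, chromosome 6, 49036546 to 49070929) had 180, 188, 77.1, 315 and 213 CPM in bleomycin lungs 1 to 5, against 31.3, 37.99, 29.6, 30.6 and 30.5 CPM in saline lungs 1 to 5. The groups did not overlap, with bleomycin lung 4 highest and lung 3 lowest (log2 2.60 ± 0.31, edgeR adjusted p = 7.51e-10). In 3 of 4 untreated lungs Gpnmb was at 34.88 to 37.98 CPM, and in untreated lung 3 at 219.4 CPM.
Trem2 (ENSMUSG00000023992, chromosome 17, 48346401 to 48354147) had 25.6, 26.9, 13.2, 45.2 and 27.5 CPM in bleomycin lungs 1 to 5, against 5.06, 5.56, 3.90, 5.12 and 4.59 CPM in saline lungs 1 to 5. The same lungs 4 and 3 marked the top and the bottom of the bleomycin group (log2 2.51 ± 0.27, edgeR adjusted p = 7.33e-12).
Spp1 (ENSMUSG00000029304, chromosome 5, 104435118 to 104441050) had 570, 632, 269, 1265 and 737 CPM in bleomycin lungs 1 to 5, against 132.1, 125.5, 146.3, 86.5 and 132.3 CPM in saline lungs 1 to 5. The lowest bleomycin lung was above the highest saline lung (log2 2.48 ± 0.37, edgeR adjusted p = 5.1e-07).

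Of 20 listed genes of macrophages derived from monocytes, 20 passed the filter on low counts, 13 rose and none fell, with a median log2 of 0.64 against -0.01 over all genes tested. List counts are over members that passed the filter. Besides the genes above, the complement subunit gene C1qb averaged 90.7 ± 23.3 CPM in bleomycin lungs and 41.8 ± 4.02 CPM in saline lungs (log2 1.12 ± 0.23, edgeR adjusted p = 0.000326). Ms4a7, a membrane protein of macrophages, averaged 18.2 ± 6.20 CPM in bleomycin lungs and 5.80 ± 0.786 CPM in saline lungs (log2 1.64 ± 0.26, edgeR adjusted p = 1.5e-06). The lipoprotein gene Apoe, which lipofibroblasts also express, rose by a smaller factor (log2 0.67 ± 0.15). Arg1, the arginase of alternatively activated macrophages, was scarce in both groups, at 1.74 ± 0.383 CPM in bleomycin lungs and 1.45 ± 0.318 CPM in saline lungs (log2 0.27 ± 0.78, edgeR adjusted p = 0.911).

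Alveolar macrophages, the resident phagocytes of the airspace, gave a mixed picture: of 20 listed genes 6 rose, while 3 fell (median 0.17). The integrin gene Itgax (CD11c) averaged 174 ± 51.2 CPM in bleomycin lungs and 78.3 ± 7.09 CPM in saline lungs (log2 1.15 ± 0.16, edgeR adjusted p = 3.86e-08). The mannose receptor gene Mrc1 averaged 206 ± 39.4 CPM in bleomycin lungs and 114.7 ± 10.3 CPM in saline lungs (log2 0.84 ± 0.16, edgeR adjusted p = 8.73e-05). Falling members were the fatty-acid-binding protein gene Fabp1, the keratin gene Krt79 and the sialic-acid-binding receptor gene Siglecf. Krt79 (ENSMUSG00000061397, chromosome 15, 101929332 to 101940324) had 6.36, 5.01, 7.33, 6.40 and 8.25 CPM in bleomycin lungs 1 to 5, against 24.7, 25.3, 21.6, 22.1 and 23.1 CPM in saline lungs 1 to 5. Every bleomycin lung was far below the lowest saline lung (log2 -1.81 ± 0.38, edgeR adjusted p = 0.000489). Fabp1 averaged 1.53 ± 0.221 CPM in bleomycin lungs and 5.54 ± 0.498 CPM in saline lungs (log2 -1.85 ± 0.41, edgeR adjusted p = 0.000817). Siglecf averaged 14.03 ± 2.48 CPM in bleomycin lungs and 20.9 ± 0.517 CPM in saline lungs (log2 -0.57 ± 0.15, edgeR adjusted p = 0.00508).

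Many lysosomal genes rose, most by small factors. Of 26 listed acid hydrolases 18 rose and none fell, with a median of 0.35, and of 14 subunits of the proton pump that acidifies lysosomes 7 rose and none fell, with a median of 0.27. Without bleomycin lung 4 the rises numbered 9 hydrolases and 5 pump genes. The tartrate-resistant phosphatase gene Acp5 averaged 46.8 ± 15.3 CPM in bleomycin lungs and 14.99 ± 1.40 CPM in saline lungs (log2 1.64 ± 0.29, edgeR adjusted p = 1.73e-05). Psap, the precursor of the saposin activators of lipid breakdown, averaged 1868 ± 502 CPM in bleomycin lungs and 976 ± 23.6 CPM in saline lungs (log2 0.94 ± 0.15, edgeR adjusted p = 2.28e-06). Pump subunit Atp6v0d2 (ENSMUSG00000028238, chromosome 4, 19876841 to 19922605) had 122.1, 100.7, 70.3, 164 and 139.3 CPM in bleomycin lungs 1 to 5, against 40.3, 44.8, 40.7, 42.9 and 40.3 CPM in saline lungs 1 to 5. The groups lay well apart (log2 1.51 ± 0.19, edgeR adjusted p = 6.35e-09), and the other 6 pump genes that rose had log2 changes of 0.23 to 0.41.

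Cathepsins and matrix proteases rose in 8 of 18 listed cases and fell in 1, with a median of 0.59; the fall was not called without saline lung 3 or bleomycin lung 1, 4 or 5. Ctsk (ENSMUSG00000028111, chromosome 3, 95499256 to 95509362) had 118.8, 79.9, 50.3, 234 and 139.5 CPM in bleomycin lungs 1 to 5, against 28.3, 32.6, 30.7, 28.5 and 30.7 CPM in saline lungs 1 to 5. Saline lungs were within 28.3 to 32.6 CPM, whereas the bleomycin lungs spread over a wider range above them (log2 2.05 ± 0.30, edgeR adjusted p = 2.69e-07). The lysosomal protease genes Ctsd and Ctss rose as well (log2 1.48 ± 0.21 and log2 1.48 ± 0.22), as did the matrix metalloproteinase gene Mmp19 (log2 1.79 ± 0.24, edgeR adjusted p = 4.54e-08), which overlaps Tmem198b on the other strand. Genes for lipid uptake and storage rose in 11 of 16 cases and fell in none, with a median of 0.58. Among them the scavenger receptor gene Msr1 averaged 15.4 ± 6.17 CPM in bleomycin lungs and 3.94 ± 0.528 CPM in saline lungs (log2 1.96 ± 0.36, edgeR adjusted p = 4.65e-05). The lipoprotein lipase gene Lpl averaged 456 ± 126.2 CPM in bleomycin lungs and 227 ± 19.5 CPM in saline lungs (log2 1.01 ± 0.19, edgeR adjusted p = 8.28e-05). The lysosomal glycoprotein gene Cd68 averaged 107.1 ± 34.7 CPM in bleomycin lungs and 41.95 ± 3.88 CPM in saline lungs (log2 1.35 ± 0.20, edgeR adjusted p = 4.26e-07).

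**Figure D2:**
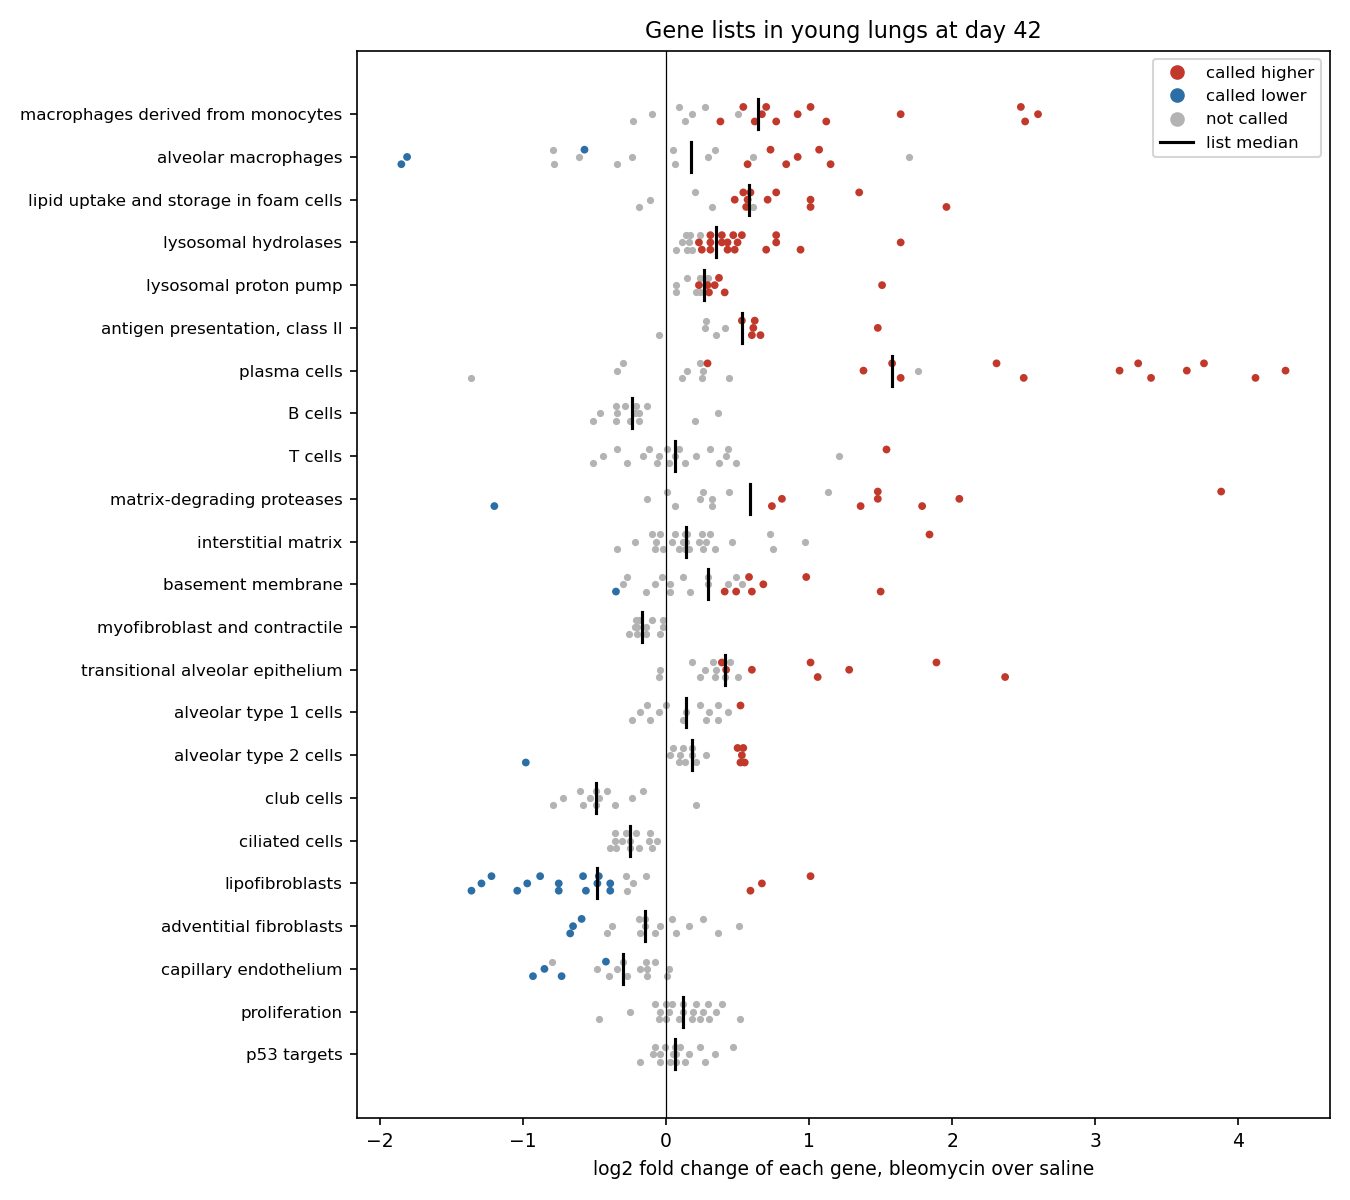
Log2 fold change of bleomycin over saline (horizontal axis) of every tested member of 23 gene lists (rows), red where called higher, blue where called lower and grey where not called, with the list median as a black bar. Rows of macrophages derived from monocytes, lysosomes and plasma cells lie mostly to the right of 0, and the lipofibroblast row mostly to the left. The alveolar macrophage row lies on both sides of 0, and proliferation and p53 targets lie around 0.

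Antibody transcripts made up the other large rise. Of 23 listed plasma cell genes 13 rose and none fell, with a median of 1.58; without bleomycin lung 4 the count was 8. Jchain (ENSMUSG00000067149, chromosome 5, 88519809 to 88527891) had 94.5, 237, 132.3, 522 and 374 CPM in bleomycin lungs 1 to 5, against 30.1, 7.86, 32.8, 20.01 and 18.2 CPM in saline lungs 1 to 5. Every bleomycin lung was above every saline lung, yet the bleomycin lungs themselves were far apart, with lung 1 lowest and lung 4 highest (log2 3.64 ± 0.62, edgeR adjusted p = 1.26e-05). Igha, the IgA heavy chain gene (ENSMUSG00000095079, chromosome 12, 113254830 to 113260236), had 411, 751, 368, 1807 and 1552 CPM in bleomycin lungs 1 to 5, against 127.9, 22.5, 119.7, 110.6 and 85.2 CPM in saline lungs 1 to 5. Bleomycin lungs 4 and 5 were well above the other 3, and all 5 were above the saline lungs (log2 3.39 ± 0.73, edgeR adjusted p = 0.000709).
The kappa light chain gene Igkc averaged 828 ± 584 CPM in bleomycin lungs and 91.9 ± 31.1 CPM in saline lungs (log2 3.17 ± 0.59, edgeR adjusted p = 7.06e-05). The IgM heavy chain gene Ighm averaged 674 ± 508 CPM in bleomycin lungs and 118.8 ± 34.6 CPM in saline lungs (log2 2.5 ± 0.65, edgeR adjusted p = 0.00611); without bleomycin lung 4 Ighm was not called. For the IgG1 gene Ighg1 the call was weak (log2 3.76 ± 1.25, edgeR adjusted p = 0.0444) and was lost without the low-count filter and when any single lung other than bleomycin lung 1 was left out. Ighg1 had 3.38, 25.3, 18.5, 2.29 and 15 CPM in bleomycin lungs 1 to 5, against 1.28, 1.13, 0.930, 1.16 and 0.158 CPM in saline lungs 1 to 5. In this case lungs 2, 3 and 5 were high and lung 4, the highest for most other risen genes, was the lowest.

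Of 177 antibody variable segments tested 73 rose and none fell, namely 35 of 85 kappa, 36 of 89 heavy and 2 of 3 lambda segments, and 8 of 12 constant regions rose. None of 32 T cell receptor segments was called. Bleomycin lung 1 had the lowest level in 45 of the 73 segments that rose and lung 4 the highest in 38. Segments of 1 family resemble each other closely, so reads may have been split between them.
Tnfrsf17, the survival receptor of plasma cells, was scarce (0.714 ± 0.432 CPM in bleomycin lungs and 0.139 ± 0.0627 CPM in saline lungs) and rose (log2 2.31 ± 0.60, edgeR adjusted p = 0.00527), but not without bleomycin lung 4. Derl3, of the degradation machinery of the endoplasmic reticulum, averaged 4.33 ± 1.74 CPM in bleomycin lungs and 1.44 ± 0.175 CPM in saline lungs (log2 1.58 ± 0.40, edgeR adjusted p = 0.00395). Xbp1, the transcription factor of the secretory programme that many lung cells express, averaged 287 ± 18.1 CPM in bleomycin lungs and 266 ± 22.7 CPM in saline lungs (log2 0.11 ± 0.10, edgeR adjusted p = 0.62).
None of 14 B cell genes was called, with a median of -0.23. The B cell receptor component gene Cd79a averaged 12.9 ± 5.09 CPM in bleomycin lungs and 14.8 ± 2.77 CPM in saline lungs (log2 -0.19 ± 0.42, edgeR adjusted p = 0.876). The surface marker gene Ms4a1 (CD20) averaged 11.6 ± 4.70 CPM in bleomycin lungs and 14.8 ± 2.47 CPM in saline lungs (log2 -0.35 ± 0.44, edgeR adjusted p = 0.752).

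Antigen presentation by MHC class II rose modestly: 6 of 11 genes rose and none fell, with a median of 0.53, and without bleomycin lung 4 the count was 2. The class II chain gene H2-Aa averaged 541 ± 114.6 CPM in bleomycin lungs and 356 ± 43.5 CPM in saline lungs (log2 0.60 ± 0.15, edgeR adjusted p = 0.00258). The invariant chain gene Cd74 averaged 1580 ± 338 CPM in bleomycin lungs and 1035 ± 116.6 CPM in saline lungs (log2 0.61 ± 0.15, edgeR adjusted p = 0.00446), whose call was lost without bleomycin lung 4. In both genes bleomycin lung 3 lay within the saline range. Dendritic cell genes rose in 6 of 15 cases and fell in none (median 0.56), with the integrin gene Itgae (CD103) at 10.7 ± 1.96 CPM in bleomycin lungs and 5.72 ± 0.918 CPM in saline lungs (log2 0.90 ± 0.21, edgeR adjusted p = 0.00163). Of 21 T cell genes the regulatory T cell factor gene Foxp3 alone rose (log2 1.54 ± 0.38, edgeR adjusted p = 0.00389); it overlaps Ppp1r3f and Ccdc22 on the other strand and was not called without bleomycin lung 4. None of 14 cytotoxic and NK cell genes was called (median -0.46). When only the bleomycin and saline groups compared here were fitted, 5 of them fell, and in the fit of all young groups 1 fell. In the other direction, 1 rose without saline lung 2 or bleomycin lung 3, and 1 rose with DESeq2.
Chemokine genes rose in 5 of 24 cases and fell in 1 (median 0.46), and without any 1 of bleomycin lungs 4 and 5 and saline lungs 3 and 5 the rises numbered 3. The macrophage chemokine gene Ccl6 (ENSMUSG00000018927, chromosome 11, 83587882 to 83593087) had 510, 448, 293, 744 and 582 CPM in bleomycin lungs 1 to 5, against 167, 166, 160, 148.7 and 138 CPM in saline lungs 1 to 5. Its groups were well apart (log2 1.72 ± 0.21, edgeR adjusted p = 1.63e-09), and its neighbour Ccl9 rose too (log2 1.46 ± 0.28). C3ar1, the receptor for complement fragment C3a, averaged 17.2 ± 5.20 CPM in bleomycin lungs and 6.78 ± 1.32 CPM in saline lungs (log2 1.34 ± 0.24, edgeR adjusted p = 3.32e-05).

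**Figure D3:**
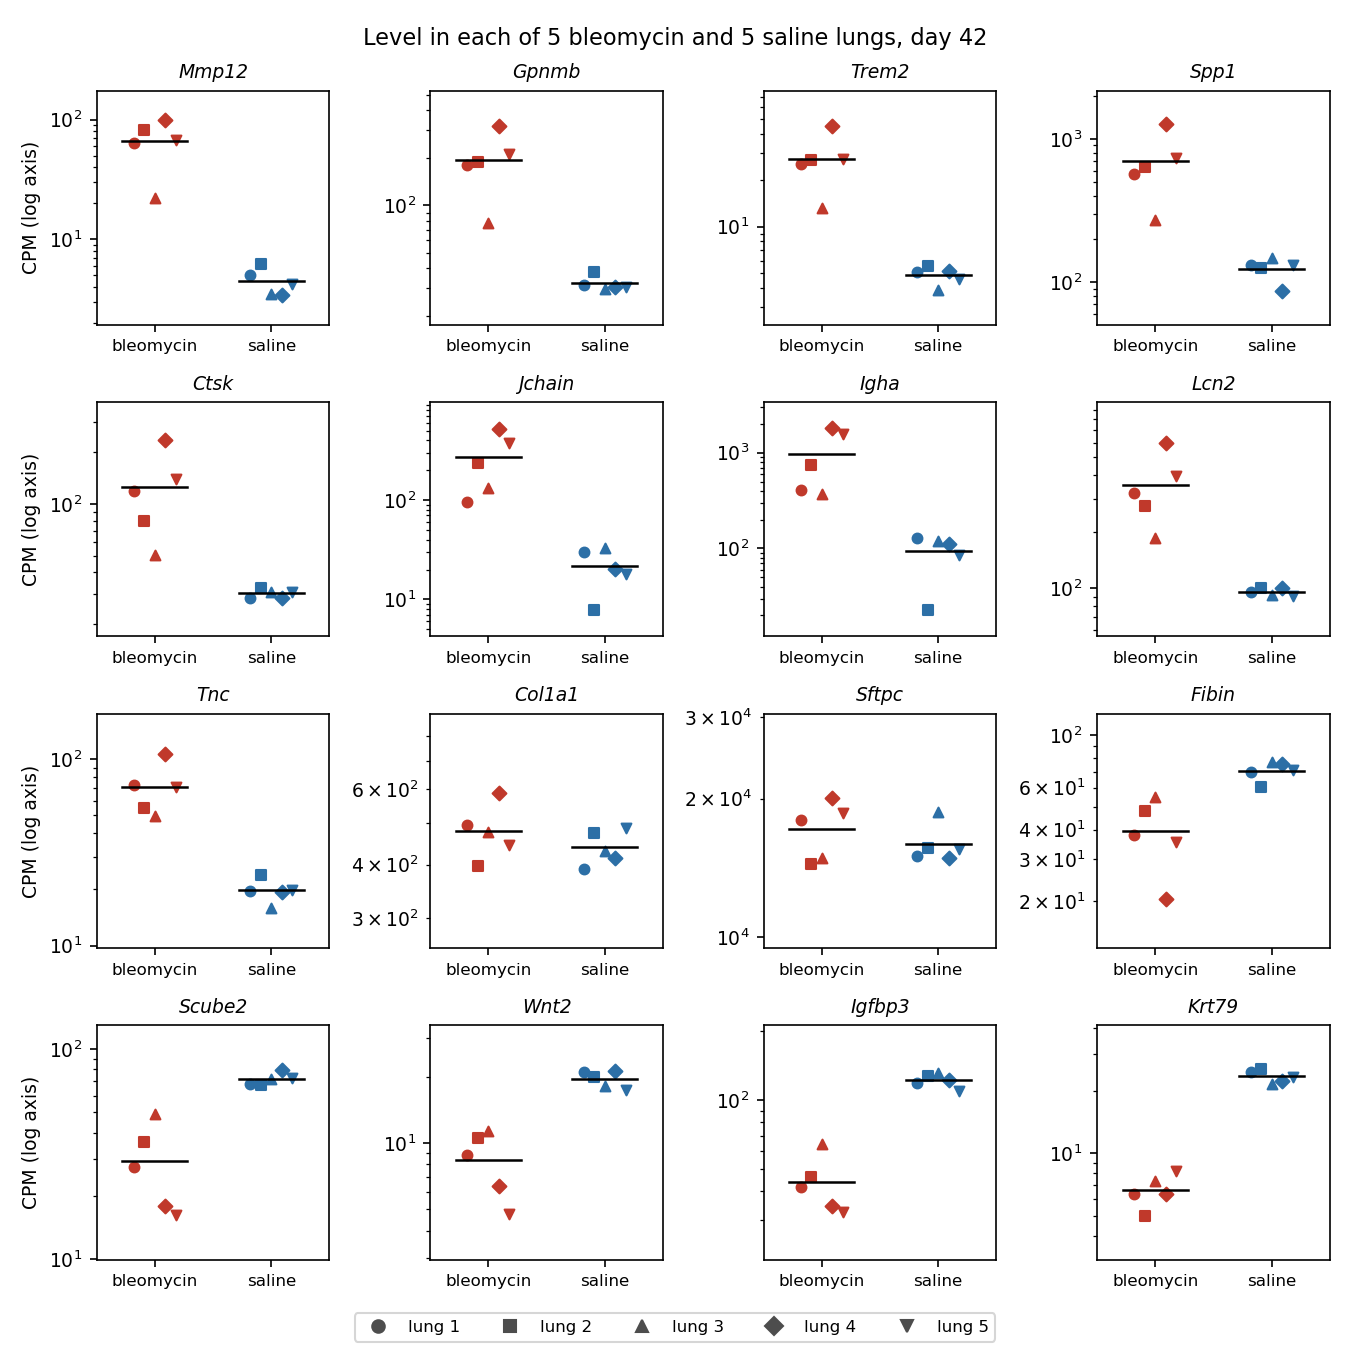
Level in CPM (vertical log axes) of 16 genes in each young lung at day 42, with 5 bleomycin lungs left of 5 saline lungs; marker shapes number the lungs within a group and bars are group means. In the macrophage genes of the top row bleomycin lung 4 (diamond) is highest and lung 3 (triangle) lowest, Col1a1 and Sftpc overlap between the groups, and Scube2, Wnt2, Igfbp3 and Krt79 are lower in all 5 bleomycin lungs.

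In the alveolar epithelium, genes of the transitional state were among those called, a state that alveolar type 2 cells pass through after injury on the way to type 1 cells. Of 19 such genes 8 rose and none fell, with a median of 0.41. Lcn2, the iron-siderophore carrier lipocalin 2 (ENSMUSG00000026822, chromosome 2, 32384633 to 32388252), had 321, 274, 185, 598 and 400 CPM in bleomycin lungs 1 to 5, against 96.1, 100.9, 91.5, 99.7 and 91.2 CPM in saline lungs 1 to 5. Saline lungs kept within 91.2 to 100.9 CPM, and the lowest bleomycin lung, lung 3, had 185 CPM (log2 1.89 ± 0.29, edgeR adjusted p = 1.06e-06). The cornified-envelope gene Sprr1a averaged 3.18 ± 1.19 CPM in bleomycin lungs and 0.604 ± 0.162 CPM in saline lungs (log2 2.37 ± 0.46, edgeR adjusted p = 0.000102). Clu, the secreted chaperone clusterin, averaged 336 ± 64.2 CPM in bleomycin lungs and 222 ± 15.3 CPM in saline lungs (log2 0.60 ± 0.14, edgeR adjusted p = 0.00235). Areg, the EGF receptor ligand amphiregulin, had 20.8, 7.10, 8.56, 11.3 and 19.9 CPM in bleomycin lungs 1 to 5, against 5.44, 4.89, 7.04, 8.56 and 6.59 CPM in saline lungs 1 to 5. Bleomycin lungs 1 and 5 were high, lung 2 lay within the saline range and lung 3 was level with the highest saline lung. Areg was called (log2 1.06 ± 0.28, edgeR adjusted p = 0.00711), and the call was lost without bleomycin lung 1 or lung 5. The keratin gene Krt8, a marker of that state, averaged 146.1 ± 17.5 CPM in bleomycin lungs and 114.4 ± 8.54 CPM in saline lungs and was not called (log2 0.35 ± 0.14, edgeR adjusted p = 0.109). Neither was the tight junction gene Cldn4 (log2 0.50 ± 0.43, edgeR adjusted p = 0.595).

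Mature alveolar cells were examined by their own lists. Of 15 type 1 genes only Cldn18, a tight junction claudin, rose (log2 0.52 ± 0.13, edgeR adjusted p = 0.00445), but not without bleomycin lung 4. Type 1 rises numbered 4 without saline lung 4 and 2 without bleomycin lung 2. The receptor gene Ager averaged 1863 ± 251 CPM in bleomycin lungs and 1539 ± 359 CPM in saline lungs (log2 0.28 ± 0.16, edgeR adjusted p = 0.344). Of 16 type 2 genes 5 rose and 1 fell (median 0.18), and the rises numbered 1 without bleomycin lung 4 or 5, 2 without saline lung 1, 4 or 5 or bleomycin lung 1, and 3 without saline lung 2. The 1 fall was not called without saline lung 3 or 5 or bleomycin lung 1, 2 or 4. Fabp5 (log2 0.54), among the type 2 risers, is also on the macrophage and foam-cell lists. Its call was lost without the low-count filter, without saline lung 1, 2, 4 or 5 and without bleomycin lung 1, 4 or 5. Surfactant protein D, Sftpd, averaged 1222 ± 188 CPM in bleomycin lungs and 865 ± 69.03 CPM in saline lungs (log2 0.50 ± 0.14, edgeR adjusted p = 0.0107, not called without bleomycin lung 4). The alarmin gene Il33 averaged 172 ± 26.9 CPM in bleomycin lungs and 118.5 ± 9.23 CPM in saline lungs (log2 0.53 ± 0.14, edgeR adjusted p = 0.00866, not called without bleomycin lung 5). Sftpc was not called (log2 0.10 ± 0.20, edgeR adjusted p = 0.852).
No gene of club or ciliated cells passed the test. None of 13 club cell genes and none of 14 ciliated cell genes was called, with medians of -0.49 and -0.25; without bleomycin lung 3, 2 club cell genes fell. Of 15 genes of basal cells, goblet cells and airway defence 1 rose, Lcn2 (median 0.04), and none fell except 1 without bleomycin lung 3. The club cell secretory protein gene Scgb1a1 (ENSMUSG00000024653, chromosome 19, 9083636 to 9087958) had 12860, 14800, 14860, 8908 and 12590 CPM in bleomycin lungs 1 to 5, against 19010, 19410, 21460, 16260 and 20800 CPM in saline lungs 1 to 5. All 5 bleomycin lungs were below all 5 saline lungs (log2 -0.60 ± 0.23, edgeR adjusted p = 0.0904), and Scgb1a1 was called when only these 10 lungs were fitted, as were 5 club cell genes in all.

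Genes of the scar matrix mostly did not pass the test. Of 27 interstitial matrix genes 1 rose, and none fell, with a median of 0.14. Type I collagen gene Col1a1 (ENSMUSG00000001506, chromosome 11, 94936224 to 94953042) had 496, 397, 477, 588 and 444 CPM in bleomycin lungs 1 to 5, against 391, 475, 430, 414 and 488 CPM in saline lungs 1 to 5. Its groups overlapped (log2 0.13 ± 0.30, edgeR adjusted p = 0.886), and untreated lungs, lung 3 included, ranged from 436 to 560 CPM. Col3a1, of the type III collagen laid down with it, averaged 980 ± 211 CPM in bleomycin lungs and 821 ± 65.5 CPM in saline lungs (log2 0.26 ± 0.23, edgeR adjusted p = 0.628). Eln, the elastin gene, had 786, 690, 676, 1380 and 836 CPM in bleomycin lungs 1 to 5, against 514, 595, 539, 497 and 483 CPM in saline lungs 1 to 5. Bleomycin lung 4 was far above the others and every bleomycin lung was above every saline lung, but the gene was not called (log2 0.73 ± 0.30, edgeR adjusted p = 0.125). Fibronectin gene Fn1 likewise had groups that did not overlap, at 928 ± 116.6 CPM in bleomycin lungs and 550 ± 52.1 CPM in saline lungs, and was not called (log2 0.75 ± 0.33, edgeR adjusted p = 0.176). With only the 10 lungs fitted, both were called, and in all 6 interstitial matrix genes rose and 1 fell.
The exception was Tnc, the gene of the injury-associated glycoprotein tenascin C (ENSMUSG00000028364, chromosome 4, 63959785 to 64047015), which overlaps 8030451A03Rik on the other strand. Tnc had 72.7, 54.8, 49.3, 106.3 and 70.9 CPM in bleomycin lungs 1 to 5, against 19.6, 23.9, 15.99, 19.4 and 19.98 CPM in saline lungs 1 to 5. The groups lay well apart (log2 1.84 ± 0.43, edgeR adjusted p = 0.00176), and untreated lungs, with the lung 3 that stood apart included, ranged from 22.6 to 60.4 CPM.

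More genes were called in other parts of the matrix. Among 21 collagen-processing genes 5 rose and 2 fell (median 0.19), and the rises numbered 1 without bleomycin lung 5 and 2 without saline lung 1 or 5 or bleomycin lung 1 or 4. The falls numbered 0 without saline lung 2, 3, 4 or 5 or bleomycin lung 1 or 5, 1 without bleomycin lung 2 or 4 and 3 without bleomycin lung 3. P4ha3, a prolyl hydroxylase subunit, averaged 4.83 ± 2.94 CPM in bleomycin lungs and 1.22 ± 0.121 CPM in saline lungs (log2 1.98 ± 0.51, edgeR adjusted p = 0.00514) and was not called without bleomycin lung 4. Of 22 basement membrane genes 7 rose and 1 fell (median 0.29); the rises numbered 4 without saline lung 1 or lung 3 and 2 without bleomycin lung 4. The 1 fall was not called without saline lung 1, 2, 3 or 5 or any bleomycin lung other than lung 3. The laminin gene Lama1 (ENSMUSG00000032796, chromosome 17, 67697259 to 67822647) had 17.2, 13.2, 15.5, 24.9 and 37.98 CPM in bleomycin lungs 1 to 5, against 8.65, 8.53, 6.11, 9.67 and 5.38 CPM in saline lungs 1 to 5. Bleomycin lung 5 was highest, unlike in the macrophage genes (log2 1.5 ± 0.34, edgeR adjusted p = 0.00142). Col4a4, a type IV collagen gene, averaged 308 ± 33.8 CPM in bleomycin lungs and 206 ± 43.4 CPM in saline lungs (log2 0.58 ± 0.14, edgeR adjusted p = 0.00407). Col28a1, a minor collagen gene, averaged 17.4 ± 8.89 CPM in bleomycin lungs and 3.69 ± 1.06 CPM in saline lungs (log2 2.24 ± 0.32, edgeR adjusted p = 1.76e-07).
None of 12 contractile genes of smooth muscle and myofibroblasts was called (median -0.17), but 1 fell without bleomycin lung 3. Acta2, the smooth muscle actin gene, had log2 -0.14 ± 0.19 (edgeR adjusted p = 0.77). Of 23 TGF-beta and BMP genes 3 rose and none fell (median 0.05), with 1 rise without bleomycin lung 4. However, 1 fell without saline lung 3 or bleomycin lung 1 or 3, and in the fit of all young groups. With only the bleomycin and saline groups compared here fitted, 6 rose and 2 fell. The receptor gene Tgfbr1 averaged 118.1 ± 6.90 CPM in bleomycin lungs and 88.99 ± 2.83 CPM in saline lungs (log2 0.41 ± 0.09, edgeR adjusted p = 0.000904). Grem1, a secreted BMP antagonist, averaged 2.69 ± 0.824 CPM in bleomycin lungs and 0.579 ± 0.148 CPM in saline lungs and just missed the threshold (log2 2.21 ± 0.76, edgeR adjusted p = 0.055); it was called without bleomycin lung 1, with DESeq2 and in the fits of young lungs alone and of these 10 lungs alone.

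Lipofibroblast genes had more falls than any other list. Of 21 listed genes 14 fell, whereas 3 rose (median -0.48). All 3 risers, Lpl, Apoe and Plin2 (log2 0.59), are also on the macrophage or foam-cell lists. Scube2, a secreted protein that helps release Hedgehog ligands (ENSMUSG00000007279, chromosome 7, 109798676 to 109865679), had 27.5, 36.1, 49.1, 17.9 and 16.1 CPM in bleomycin lungs 1 to 5, against 67.8, 67.2, 71.8, 79.7 and 72.97 CPM in saline lungs 1 to 5. All bleomycin lungs were below all saline lungs, with lung 3 closest to them and lungs 4 and 5 farthest (log2 -1.29 ± 0.19, edgeR adjusted p = 1.94e-07). Untreated lungs, lung 3 included, ranged from 43.7 to 65.2 CPM, below the saline lungs and above 4 of the 5 bleomycin lungs. Wnt2, a Wnt ligand of lung mesenchyme (ENSMUSG00000010797, chromosome 6, 17988940 to 18030585), had 8.84, 10.6, 11.3, 6.40 and 4.77 CPM in bleomycin lungs 1 to 5, against 21.1, 19.9, 18.1, 21.2 and 17.5 CPM in saline lungs 1 to 5. Again lung 3 was highest and lung 5 lowest of the bleomycin group (log2 -1.22 ± 0.18, edgeR adjusted p = 4.08e-07).
Inmt, an amine methyltransferase, averaged 815 ± 202 CPM in bleomycin lungs and 1592 ± 78.5 CPM in saline lungs (log2 -0.97 ± 0.24, edgeR adjusted p = 0.00392). The mesenchymal transcription factor gene Tcf21 averaged 48.8 ± 14.6 CPM in bleomycin lungs and 82.02 ± 7.15 CPM in saline lungs (log2 -0.75 ± 0.16, edgeR adjusted p = 0.000761). Fgf10, the growth factor that maintains alveolar type 2 cells, averaged 14.3 ± 2.71 CPM in bleomycin lungs and 21.4 ± 1.48 CPM in saline lungs (log2 -0.58 ± 0.12, edgeR adjusted p = 0.000251). Vegfd, a lymphangiogenic factor, averaged 38.1 ± 8.13 CPM in bleomycin lungs and 56.3 ± 2.80 CPM in saline lungs (log2 -0.56 ± 0.11, edgeR adjusted p = 0.000161). Mfap4, a microfibril glycoprotein, averaged 258 ± 53.4 CPM in bleomycin lungs and 435 ± 43.97 CPM in saline lungs (log2 -0.75 ± 0.15, edgeR adjusted p = 0.000308). G0s2, an inhibitor of the lipase that empties lipid droplets, averaged 39.1 ± 12.4 CPM in bleomycin lungs and 80.2 ± 7.38 CPM in saline lungs (log2 -1.04 ± 0.23, edgeR adjusted p = 0.000955); it lies within Lamb3 on the other strand, and Lamb3, a laminin gene, rose (log2 0.49 ± 0.13; not called without bleomycin lung 4).
In 12 of these 14 falls bleomycin lung 3 was the highest of its group, and in 11 lung 5 was the lowest. Adventitial fibroblast genes fell in 3 of 17 cases and rose in none (median -0.15), with no fall without bleomycin lung 5 and 1 without bleomycin lung 4.

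Among the other named falls was the growth factor carrier gene Igfbp3 (ENSMUSG00000020427, chromosome 11, 7206086 to 7213923), which had 41.8, 46.4, 64.5, 34.6 and 32.4 CPM in bleomycin lungs 1 to 5, against 118.6, 127.1, 131.8, 122.7 and 109.6 CPM in saline lungs 1 to 5. The groups were far apart (log2 -1.47 ± 0.23, edgeR adjusted p = 1.83e-06), and bleomycin lung 3 was again nearest to the saline lungs. Hes2, a transcriptional repressor gene, had the largest of the named falls, at 1.83 ± 0.404 CPM in bleomycin lungs and 8.53 ± 0.730 CPM in saline lungs (log2 -2.21 ± 0.37, edgeR adjusted p = 8.65e-06). Bex2, of a small X-linked family with closely related members, averaged 8.97 ± 1.91 CPM in bleomycin lungs and 34.3 ± 5.92 CPM in saline lungs (log2 -1.93 ± 0.35). Its family member Bex4 averaged 6.92 ± 1.43 CPM in bleomycin lungs and 17.02 ± 2.27 CPM in saline lungs (log2 -1.3 ± 0.21). Col17a1, the collagen of hemidesmosomes, averaged 3.71 ± 0.873 CPM in bleomycin lungs and 9.79 ± 0.762 CPM in saline lungs (log2 -1.40 ± 0.33, edgeR adjusted p = 0.00235). The vasopressin receptor gene Avpr1a averaged 2.15 ± 0.531 CPM in bleomycin lungs and 5.85 ± 0.862 CPM in saline lungs (log2 -1.44 ± 0.27, edgeR adjusted p = 6.6e-05). The glutamate receptor subunit gene Gria1 and its partner Gsg1l both fell (log2 -1.47 ± 0.37 and log2 -1.35 ± 0.29), as did the copine gene Cpne5 (log2 -1.32 ± 0.24), the cystatin gene Cst8 (log2 -1.64 ± 0.37) and the amino acid transporter gene Slc7a10 (log2 -1.36 ± 0.38). Slc7a10, which is also among the lipofibroblast falls counted above, overlaps Lrp3 on the other strand and was not called without bleomycin lung 4.

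The remaining named rises were of mixed function. Saa3, an acute-phase apolipoprotein gene (ENSMUSG00000040026, chromosome 7, 46711998 to 46715700), had 19.5, 8.31, 4.13, 35.5 and 22.4 CPM in bleomycin lungs 1 to 5, against 2.27, 1.84, 1.68, 1.59 and 1.002 CPM in saline lungs 1 to 5. Bleomycin lung 3, at 4.13 CPM, came closest to the saline lungs (log2 3.41 ± 0.63, edgeR adjusted p = 6.18e-05). Slc26a4, the anion exchanger pendrin, averaged 41.5 ± 19.3 CPM in bleomycin lungs and 6.87 ± 2.02 CPM in saline lungs (log2 2.59 ± 0.35, edgeR adjusted p = 2.83e-08). The chemokine receptor gene Cxcr1 averaged 8.62 ± 3.11 CPM in bleomycin lungs and 1.97 ± 0.196 CPM in saline lungs (log2 2.13 ± 0.32, edgeR adjusted p = 7.93e-07). Pianp, Stra6l, Zranb3, Rgs16 and Mybpc2 rose with log2 changes between 2.01 and 2.92. Zranb3, whose product restarts stalled replication forks, averaged 21.97 ± 9.09 CPM in bleomycin lungs and 5.28 ± 0.407 CPM in saline lungs (log2 2.06 ± 0.22, edgeR adjusted p = 7.33e-12). Mybpc2 averaged 7.29 ± 2.70 CPM in bleomycin lungs and 1.80 ± 0.883 CPM in saline lungs (log2 2.01 ± 0.27, edgeR adjusted p = 2.79e-08); both overlap other annotated genes, and with the strand setting not given their reads cannot be told apart.

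Vessel genes fell in part. Of 18 endothelial genes 2 fell and of 17 capillary genes 4 fell, none rose in either list, and the medians were -0.17 and -0.30. Without bleomycin lung 4 none fell in either. In the endothelial list none fell without bleomycin lung 5 and 1 fell without saline lung 3 or 5, and 2 capillary genes fell without bleomycin lung 1 or 5 or saline lung 1, 2, 3 or 5. The VEGF receptor gene Kdr (ENSMUSG00000062960, chromosome 5, 75932827 to 75978458) had 472, 570, 517, 386 and 446 CPM in bleomycin lungs 1 to 5, against 713, 680, 672, 663 and 687 CPM in saline lungs 1 to 5. The groups did not overlap (log2 -0.51 ± 0.15, edgeR adjusted p = 0.0133), and the call was lost without bleomycin lung 4 or lung 5. Car4, the carbonic anhydrase of aerocytes, also had groups that did not overlap, at 126.7 ± 13.6 CPM in bleomycin lungs and 160 ± 10.6 CPM in saline lungs, but was not called (log2 -0.34 ± 0.13, edgeR adjusted p = 0.117). Fibin averaged 39.4 ± 13.2 CPM in bleomycin lungs and 70.8 ± 6.42 CPM in saline lungs (log2 -0.85 ± 0.21, edgeR adjusted p = 0.00352). The stem cell factor gene Kitl averaged 236 ± 38.6 CPM in bleomycin lungs and 316 ± 18.6 CPM in saline lungs (log2 -0.42 ± 0.11, edgeR adjusted p = 0.00512). Neither was called without bleomycin lung 4.
Of 16 tested genes of arteries, veins and lymphatics 3 rose and 3 fell (1 fall without bleomycin lung 4). Prox1, the identity factor of lymphatic endothelium, rose (log2 0.86 ± 0.23, edgeR adjusted p = 0.00796). The multimerin gene Mmrn1, also of lymphatics, rose (log2 0.71 ± 0.16, edgeR adjusted p = 0.00104). Ackr1, a chemokine-binding receptor of venules, was at 0.951 ± 0.382 CPM in bleomycin lungs and 0.244 ± 0.144 CPM in saline lungs and rose (log2 1.95 ± 0.53, edgeR adjusted p = 0.00995), but not without bleomycin lung 4 or saline lung 2. Gja5, the arterial gap junction gene, averaged 46.4 ± 6.06 CPM in bleomycin lungs and 74.9 ± 4.31 CPM in saline lungs and fell (log2 -0.69 ± 0.14, edgeR adjusted p = 0.000339).

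No gene was called among 22 of proliferation, 18 targets of p53, 20 of the interferon response, 12 of mesothelium, 12 of blood and platelets, 12 of cardiac muscle, 18 of oxidative phosphorylation and 14 immediate early genes. Among the p53 targets 1 rose without saline lung 4, bleomycin lung 2 or bleomycin lung 3, with RLE scaling and with DESeq2, and 1 gene of mesothelium fell without bleomycin lung 3. DESeq2 called 1 interferon response gene. With all young groups alone fitted, 1 p53 target and 3 interferon response genes rose. In that fit 2 interferon response genes, 1 gene of mesothelium and 2 of blood and platelets fell. The fit of these 10 lungs alone called genes in all of these lists except cardiac muscle and oxidative phosphorylation. The division marker gene Mki67 averaged 9.08 ± 2.65 CPM in bleomycin lungs and 6.34 ± 1.28 CPM in saline lungs (log2 0.52 ± 0.44, edgeR adjusted p = 0.59). Cdkn1a, a p53-driven cell cycle inhibitor, averaged 457 ± 59.7 CPM in bleomycin lungs and 380 ± 66.4 CPM in saline lungs (log2 0.27 ± 0.14, edgeR adjusted p = 0.312). The clock-controlled gene Dbp averaged 12.1 ± 3.73 CPM in bleomycin lungs and 8.24 ± 3.80 CPM in saline lungs (log2 0.55 ± 0.41, edgeR adjusted p = 0.511).

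Bleomycin lungs varied more among themselves than saline lungs did. The correlation of log2 CPM between pairs of lungs was 0.985 to 0.9946 over 10 bleomycin pairs and 0.9952 to 0.9972 over 10 saline pairs. Among the 871 rises bleomycin lung 4 had the highest level of the 5 in 652 and lung 3 the lowest in 539. Among the 530 falls lung 3 was the highest in 301, and lungs 4 and 5 the lowest in 249 and 205. All 13 macrophage genes that rose had their lowest bleomycin level in lung 3. Of the 13 plasma cell genes that rose, 9 were also highest in lung 4, but 8 were lowest in lung 1.

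Day 42 was then set against the neighbouring days, each with its own saline group, so that the effects share no lung. The fit called 3626 genes at day 35 (19.7%; 10.1% higher and 9.59% lower) and 2982 at day 56 (16.2%; 7.91% higher and 8.30% lower). Of the 871 rises at day 42, 740 also rose at day 35 (85% of them, and 39.7% of the 1862 rises there) and 682 rose at day 56 (78.3% and 46.8% of 1456). Of the 530 falls, 351 also fell at day 35 (66.2%, and 19.9% of the 1764 falls there) and 309 at day 56 (58.3% and 20.2% of 1526). At least 1 of the neighbouring days gave the same call for 797 of the 871 rises and for 401 of the 530 falls. By the test of the difference itself, no gene's effect differed between day 42 and day 35 (0%), with 1018 genes at an unadjusted p below 0.05, nor between day 42 and day 56 (0%), with 1008. DESeq2 called 4 genes in each.
Estimates for 3 matrix genes were lower at day 42 than at day 35, without passing the test. The day 42 effect minus the day 35 effect was log2 -0.81 ± 0.46 for Col1a1, -1.01 ± 0.44 for Eln and -1.15 ± 0.50 for Fn1, each with an edgeR adjusted p of 0.889 or above. For Arg1 it was -3.38 ± 1.11, with Arg1 called at day 35 (log2 3.64). Meox2, a homeobox gene of vessels and mesenchyme, fell at day 42 but its effect was 0.09 at day 35 and 0.07 at day 56; the day 42 minus day 35 difference was -0.66 ± 0.17 (edgeR adjusted p = 0.889). Mmp12 had effects of 4.19 at day 35, 3.88 at day 42 and 4.18 at day 56, and the day 42 effect minus that of day 35 was -0.31 ± 0.74. The plasma cell gene Jchain had 3.54, 3.64 and 3.42 on the same days, and Scube2 had -1.17, -1.29 and -1.29.

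**Figure D4:**
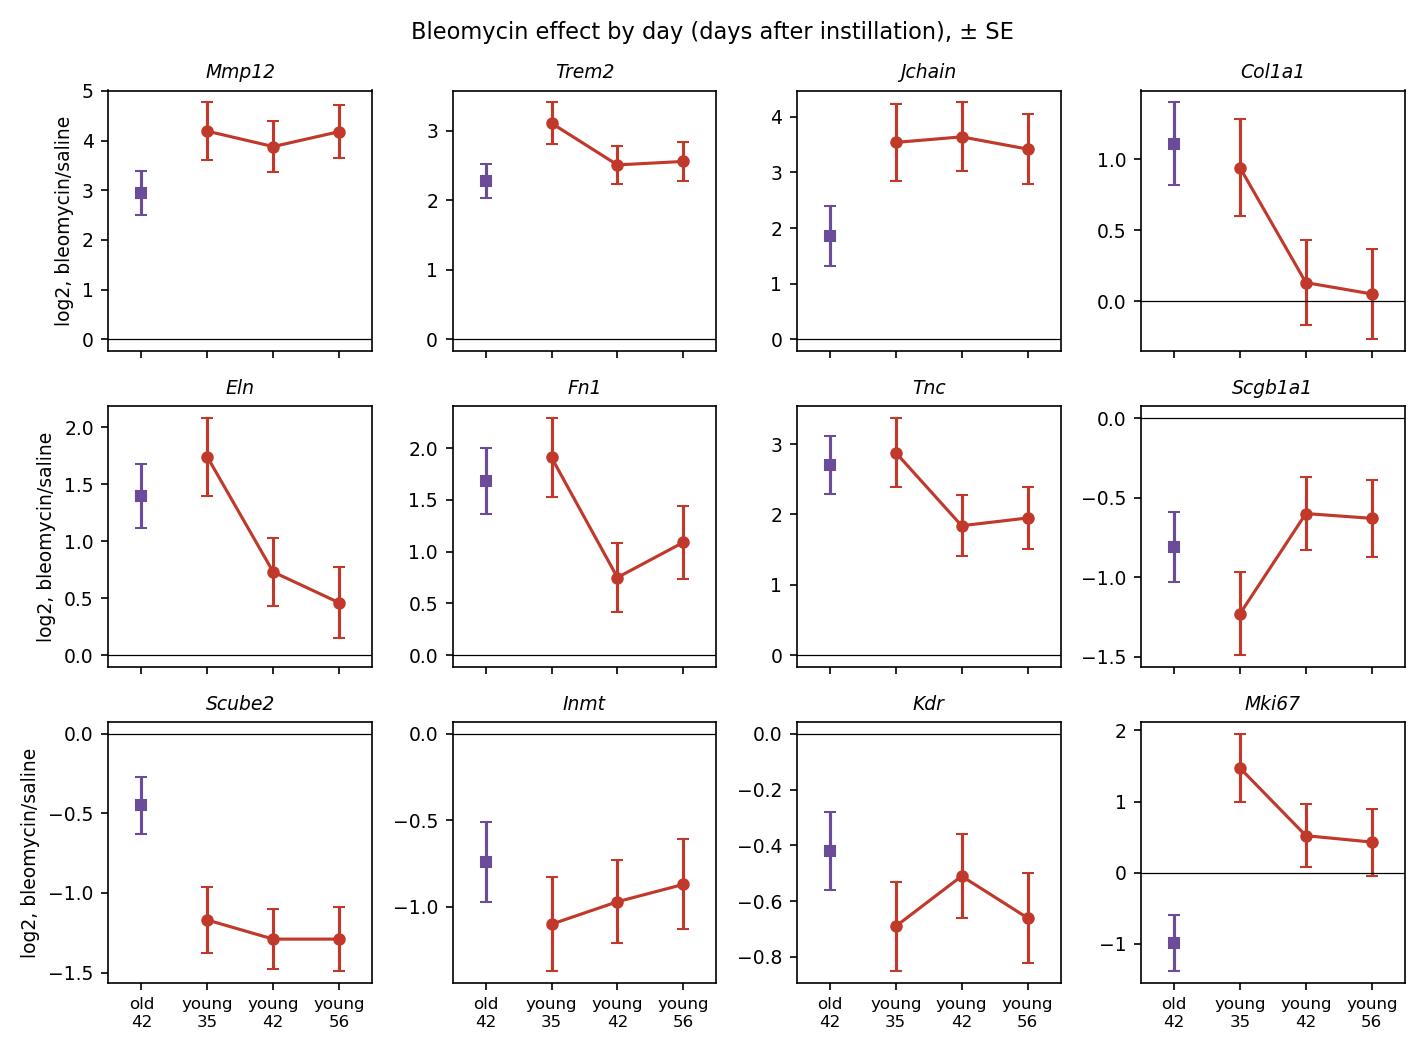
Log2 fold change of bleomycin over saline ± standard error (vertical axes) for 12 genes in old lungs at day 42 (purple square) and in young lungs at days 35, 42 and 56 (red circles). Mmp12, Jchain and Scube2 keep about the same young values on the 3 days, while Col1a1, Eln and Fn1 have lower young values at day 42 than at day 35.

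In old lungs at day 42 the fit called 3610 genes (19.6%; 9.77% higher and 9.85% lower). For 6 genes (0.0326%) the old effect minus the young effect passed the test, 5 positive (0.0272%) and 1 negative (0.00544%), with 1580 genes at an unadjusted p below 0.05. Meox2 (ENSMUSG00000036144, chromosome 12, 37108540 to 37179534) averaged 27.4 ± 1.47 CPM in old bleomycin lungs (n = 5) and 21.6 ± 5.82 CPM in old saline lungs (n = 6). In young lungs it averaged 16.4 ± 1.78 CPM in bleomycin lungs and 24.4 ± 0.670 CPM in saline lungs (n = 5 each). All 5 young bleomycin lungs were below all 5 young saline lungs, whereas the old groups overlapped. The effect was log2 0.35 in old and -0.57 in young lungs, a difference of 0.92 ± 0.16 (edgeR adjusted p = 0.000662), and the call was lost when only these 4 groups were fitted.
The other 5 were called in 2 to 9 of 16 alternatives. Slc27a6, a fatty acid transporter gene, differed by 1.15 ± 0.25, the iron reductase gene Steap3 by 0.57 ± 0.12, the small GTPase gene Rap2a by 0.46 ± 0.09 and the transcript D430019H16Rik by 0.65 ± 0.14. The IgG3 heavy chain gene Ighg3 differed by -6.55 ± 1.43, and 1 old saline lung, replicate 6, had 274 CPM against a group median of 5.01 CPM. Without that lung the difference was -2.93 and not called (edgeR adjusted p = 0.81), and Meox2 was the only gene called.
Collagen and fibroblast genes did not pass this test. The old minus young difference was log2 0.98 ± 0.42 for Col1a1 (edgeR adjusted p = 0.5), whose effect was 1.11 in old and 0.13 in young lungs, and 0.86 ± 0.21 for Mfap4 (edgeR adjusted p = 0.0841), whose effect was 0.11 in old and -0.75 in young lungs. For Cxcr1 the difference was -1.92 ± 0.44 (edgeR adjusted p = 0.066), with effects of 0.21 in old and 2.13 in young lungs.

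**Figure D5:**
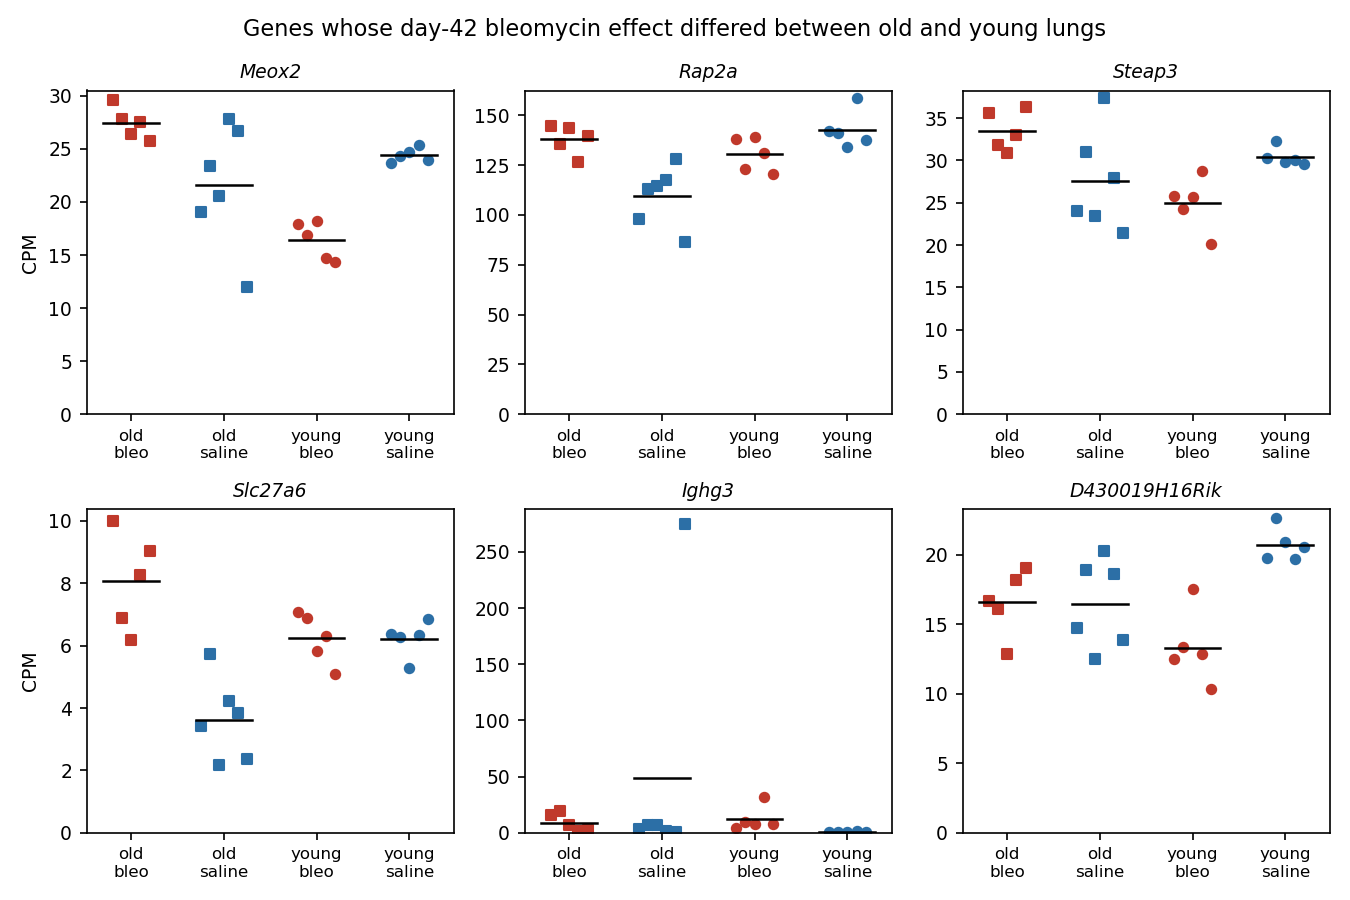
CPM (vertical axes, from 0) in each lung at day 42 for the 6 genes that passed the test of old minus young effect, in old bleomycin, old saline, young bleomycin and young saline lungs from left to right, with bars at group means. Meox2 is lower in young bleomycin than in young saline lungs without overlap, and for Ighg3 a single old saline lung at 274 CPM sets its group's mean.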

How the data were processed

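The authors deposited gene-level read counts, and all libraries of the series were fitted together. Per the labels, RNA was isolated with Qiazol and libraries were made with a poly-A kit. The submitters' processing notes name bcl2fastq 2.20.0.422, STAR 2.5.2 and 2.5.2b, featureCounts 1.5.1, RSEM 1.3.0 and FastQC 0.11.5. Neither strandedness nor the annotation nor the handling of multi-mapped reads is given in the sources used here, so overlapping genes and near-identical copies cannot be told apart.

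Symbols, biotypes and GRCm38 positions come from GENCODE M21, and promoters from RefSeq (GRCm38.p6). Of 48794 genes, 36251 had a read and 18396 passed filterByExpr (minimum count 10, minimum total 15). Counts were TMM-scaled and tested with edgeR 4.0.16 (R 4.3.3, limma 3.58.1; glmQLFit robust, glmQLFTest) with 1 coefficient for each of 26 groups of age, treatment and day. P-values were adjusted by Benjamini-Hochberg within a contrast and genes called below 0.05. Standard errors were derived from each log2 change and its F statistic. The script was tested on simulated counts. Library depth stands at the head of the results, and low counts limit the precision of scarce genes.

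Genes named are, of called genes without overlap of the groups and averaging over 1 on the log2 CPM scale, the 16 with the highest and the 14 with the lowest log2 change (predicted genes, pseudogenes and antigen-receptor genes skipped), up to 4 members with the smallest p in each list, a panel of 25 genes, and up to 8 called genes for each comparison of effects. Further list members were named after their values were seen. The members and all 55 lists were chosen with earlier results of these data known. Alternatives were RLE scaling, no filter, DESeq2 1.42.0, smaller fits and leaving out lungs. Replicate numbers follow accession order.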

Additional observations from a re-analysis of the deposited data

Results flagged for a closer look

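Values far from the rest of their group were looked for in the named genes over the 5 bleomycin and the 5 saline lungs (234 groups), and in 7 genes over the 4 untreated lungs. With Dixon's test, chance marks about 1 group in 20; here 17 values were marked, 12 of them in the 234 groups. No explanation of them was tested.

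In untreated lung 3, 5 of the 7 genes examined were marked: Mmp12 at 349.3 CPM against 5.55 to 6.55 in the other 3, Gpnmb at 219.4 against 34.88 to 37.98, Spp1 at 429.7 against 122.5 to 133.2, Jchain at 268.2 against 12.8 to 41.2, and Trem2 at 22.9 against 5.38 to 7.26. Bleomycin lung 4 was high for Eln (1380 CPM against 676 to 836), Mybpc2 (12.0 against 5.26 to 6.98), Ighg3 (31.5 against 4.50 to 9.96) and Tnfrsf17 (1.47 against 0.464 to 0.661). Saline lung 4 was high for the epithelial genes Ager (2157 CPM against 1300 to 1548), Cldn18 (748 against 458 to 540) and Krt8 (129.3 against 108.1 to 113.4). Saline lung 3 was high for the surfactant genes Sftpc (18740 CPM against 14900 to 15630) and Sftpd (984 against 807 to 853) and low for Fn1 (460 against 557 to 585). Saline lung 2 was high for Gpnmb (37.99 CPM against 29.6 to 31.3) and Steap3 (32.3 against 29.6 to 30.3).

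The test of the difference marked 6 genes whose day 42 effect differed between old and young lungs: Ighg3 (-6.55), Slc27a6 (1.15), Meox2 (0.92), D430019H16Rik (0.65), Steap3 (0.57) and Rap2a (0.46), on the log2 scale as old minus young.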

How the results depend on the processing

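Leaving out 1 of the 10 young lungs gave 698 to 1658 called genes at young day 42 and 1 to 20 for old minus young; the fit without bleomycin lung 3 gave 20, and those without untreated lung 3 or old saline lung 6, chosen after seeing the data, gave 2 and 1. Fitting only the groups compared gave 2106 genes at day 42 and 0 for old minus young. RLE scaling gave 2 and no filter gave 1 for old minus young. DESeq2 gave 24 there, 4 for day 42 minus day 35 and 4 for day 42 minus day 56; the other alternatives gave 0 for both of the last. The cause of these shifts was not tested. RLE scaling (1406), no filter (1071), all young groups alone (1833) and DESeq2 (1528) stayed within 1.5 times of 1401. Of 96 named genes called, 75 kept their call in every alternative, 21 lost it in at least 1 and none reversed. Fabp5, named above, is not in this count, and its call was lost in 8 of 16 alternatives. Of 21 not called, 6 gained a call. Many of the named genes were picked for large changes or small p, so these counts do not speak for all called genes. The fit without bleomycin lung 4 kept 691 of all 1401 calls, and 18 of the 96 named genes counted lost theirs in it. No paired analysis was possible because titles number libraries through the series and not by pairs. Depth limits genes at a few counts per lung, such as Tnfrsf17 and Ackr1, whose changes rest on small counts.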

Other observations

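A few further genes rose at day 42. In fatty acid synthesis 3 of 16 genes rose and none fell (median 0.11; 1 rose without bleomycin lung 4 and 5 without lung 3), with the fatty acid synthase gene Fasn at 1258 ± 187 CPM in bleomycin lungs and 882 ± 43.7 CPM in saline lungs (log2 0.51 ± 0.13, edgeR adjusted p = 0.00442). The desaturase gene Scd1 averaged 4693 ± 1076 CPM in bleomycin lungs and 2929 ± 444 CPM in saline lungs (log2 0.68 ± 0.19, edgeR adjusted p = 0.00933, not called without bleomycin lung 4). In iron and heme handling 4 of 14 rose and 1 fell (median 0.19; 2 rises and no fall without bleomycin lung 4). The ferritin light chain gene Ftl1 averaged 246 ± 59.5 CPM in bleomycin lungs and 156 ± 8.41 CPM in saline lungs (log2 0.66 ± 0.14, edgeR adjusted p = 0.000592). Hamp, the gene of the iron hormone hepcidin, was scarce in every lung, averaged 0.210 ± 0.198 CPM in bleomycin lungs and 1.01 ± 0.505 CPM in saline lungs and fell (log2 -2.22 ± 0.62, edgeR adjusted p = 0.011), but not without bleomycin lung 4.

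A few members of other lists also rose. Of 13 genes of mast cells, basophils and eosinophils 1 rose, Prg2, and 1 fell, Siglecf, with a median of -0.16. Prg2, a granule protein gene of eosinophils, averaged 1.84 ± 1.08 CPM in bleomycin lungs and 0.260 ± 0.103 CPM in saline lungs (log2 2.80 ± 0.66, edgeR adjusted p = 0.00207). Tubb3, a tubulin gene of neurons, averaged 2.43 ± 0.949 CPM in bleomycin lungs and 0.896 ± 0.254 CPM in saline lungs (log2 1.43 ± 0.36, edgeR adjusted p = 0.00467). Genes of senescence and its secretions rose in 3 of 15 cases and fell in 1 (median 0.27). Their rises numbered 0 without bleomycin lung 4 and 1 without saline lung 3, 4 or 5 or bleomycin lung 5. Cdkn2a, the locus of the cell cycle inhibitor p16, averaged 1.59 ± 0.812 CPM in bleomycin lungs and 0.575 ± 0.121 CPM in saline lungs (log2 1.47 ± 0.38, edgeR adjusted p = 0.00464, not called without bleomycin lung 4). Bhlhe41, the only clock gene called of 16 (2 without saline lung 4), averaged 32.6 ± 9.22 CPM in bleomycin lungs and 15.7 ± 1.37 CPM in saline lungs (log2 1.06 ± 0.16, edgeR adjusted p = 5.71e-07).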
